A study of Oryza sativa Indica Group with 4 samples.

Results

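Beta-glucosidases of glycoside hydrolase family GH1 cut a glucose unit from the end of a short sugar chain or from a small molecule that carries it. In plants such glucosides include cell wall oligosaccharides, lignin precursors, defence compounds and stored, inactive forms of hormones, so one enzyme family serves wall turnover, lignification and hormone release. Rice genes of this family are numbered with the prefix BGLU, and the systematic synonym adds the chromosome (Os3bglu7 is BGLU7). The members described here are the genes whose symbol or synonym is BGLU followed by a number from 1 to 38, and which are paired with a probe set of the array that is paired with no other gene. The gene table holds 31 such genes, 27 of them had a probe set, and these 27 stand among 17905 genes paired with a probe set in all. BGLU2, BGLU4, BGLU21 and BGLU24 had none and were not analysed here, nor were the 7 numbers that have no entry in the gene table. The synonym BGLU1 is shared by LOC4324050 (Os1bglu1) and LOC4333841 (Os3bglu7). Here BGLU1 means the first and BGLU7 the second.

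Transcripts were measured on the Affymetrix rice array in panicle primordia, the young inflorescences that later form the panicle branches, at a stage the submitters number 0. The plants were recombinant inbred lines of Oryza sativa (Indica Group) derived from 2 cultivars, that is, lines fixed by selfing after a cross. The high-grain bulk pooled RNA of 10 lines with a high number of grains per panicle, and the low-grain bulk pooled RNA of 10 lines with a low number. Both bulks were measured in 2 biological replications, which gives 4 arrays. What the replications share is not stated, the single lines of a bulk are not seen, and a p-value here measures only the spread between 2 arrays of a group. In bulk tissue, fewer cells that express a gene and less RNA per cell cannot be told apart. With 2 arrays against 2, an exact permutation test of a single gene cannot go below p = 0.333 (two-sided), so the test used was limma, which shares the spread over all probe sets. The question behind the comparison is how gene expression in the young panicle differs where lines bear many grains and where they bear few.

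Intensities below are quantile normalised over the 4 arrays, on a linear scale, and differences are on the log2(intensity + 16) scale. The arrays carried the transcripts of a young inflorescence. Of 9 meristem and inflorescence identity genes on the array, 7 had an intensity of 16 or more on all 4 arrays (OSH1, MADS14, MADS15, MADS18, MADS34, RFL and LOG), LAX1 and FZP did not, and 0 of the 8 tested passed the test (limma, 0 at an unadjusted p under 0.05). The summed intensity of these 9 was 1885.8 and 1939.6 in high-grain bulks and 2202 and 1781 in low-grain bulks. Some markers of other tissues moved with the groups. Of 5 genes matched by stem secondary wall symbols, 3 passed and were lower in high-grain bulks (CESA4, CESA7 and BC1, LOC4333114). CESA9 had -0.83 ± 0.21 without passing. The symbol BC1 also matched LOC4347540, which has the synonym bHLH081 as well, so it may not belong to the list (0.17 ± 0.21). The summed intensity of all 5 was 78.9 and 104.6 in high-grain bulks and 357 and 438 in low-grain bulks. Of 4 anther tapetum genes, RTS passed and was lower in high-grain bulks, where it was near 0 (1.52 and 0.875). C6 was also below both low arrays without passing (-2.84 ± 0.65, limma adjusted p = 0.115), while TDR and GAMYB had differences of 0.19 and 0.20. The tapetum sums, 214 and 406 in high-grain bulks and 987 and 1679 in low-grain bulks, are carried by RTS and C6. The 3 leaf genes did not pass (sums of 2499 and 1998.5 in high-grain bulks and 2578 and 2159 in low-grain bulks). The root gene PHT1;2 did not pass (1.65 and 0.975 in high-grain bulks, 7.80 and 4.80 in low-grain bulks). The ratio of actin 3' to 5' signal, which rises as RNA degrades, was 33.3 and 36.9 for high-grain bulks and 42.2 and 47.8 for low-grain bulks. The 3' signal was thus at least 33.3 times the 5' signal on every array of both groups. Both low arrays had a higher ratio than both high arrays, so this ratio and the grain number groups cannot be told apart. The part of these differences in the values below was not tested.

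The differences of the tested beta-glucosidase genes between the bulks were all below 2-fold on the log2(intensity + 16) scale, and none passed the test. Of the 27 genes, 22 reached the 40th percentile of mean signal that a probe set needed to be tested, and 0 passed an adjusted p of 0.05 (limma, Benjamini-Hochberg over 34316 probe sets), where 0.568% of all tested probe sets did. At an unadjusted p under 0.05 there was 1 gene, BGLU8, against 8.24% of all tested probe sets. The log2 differences, high minus low grain number, ran between -0.29 and 0.51, and their median size was 0.19, against 0.16 over all tested probe sets. A difference of 2-fold or more, which 1.02% of all tested probe sets had, was measured for 0 of the 22 on this scale. Mean intensities themselves differed by more in some dim genes, such as BGLU34 with 6.62 in high-grain bulks and 1.54 in low-grain bulks. The 95% interval of each of the 22 differences lay within 2-fold in either direction on the log2(intensity + 16) scale. The added 16 pulls the differences of dim genes towards 0, so for these the interval does not limit the true fold. Of the 9 genes with an intensity of 16 or more on all arrays, all had an interval within 2-fold in this fit, 8 did without the filter on dim probe sets, 8 or 9 without 1 array, 7 after median centring, and 6 under the deposited scaling or with log2(value + 1).

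**Figure D1:**
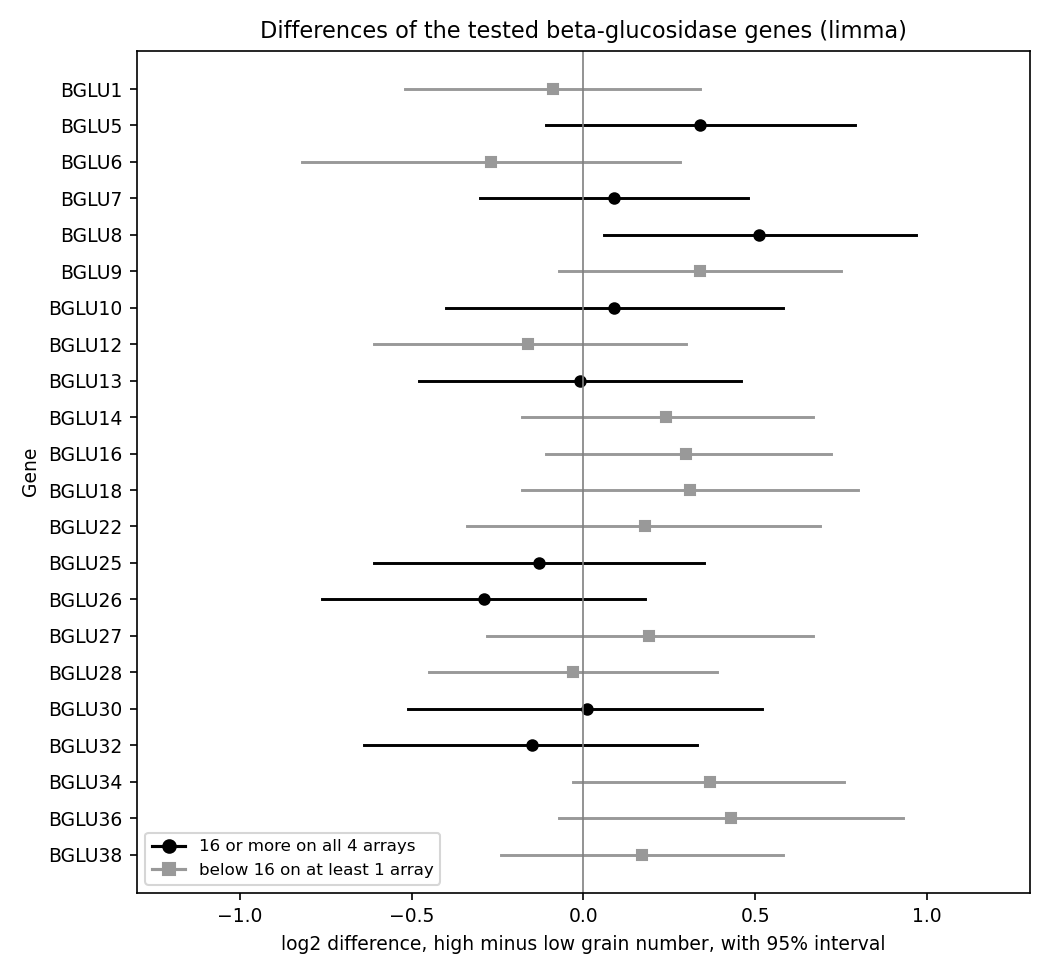
Differences of the 22 tested beta-glucosidase genes. The x axis is the log2 difference of the high minus the low grain number bulks with limma's 95% interval (bars, unadjusted). Black circles mark genes at 16 or more on all 4 arrays and grey squares the others. The interval of BGLU8, from 0.06 to 0.97, is the only one that leaves out 0.

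Of the 22 tested genes, 14 had a positive difference, against 52.1% of all tested probe sets. The median difference was 0.13, against 0.01 over all tested probe sets, and 13 of the 22 lay above that median of all probe sets. Both high arrays stood above both low arrays for 7 of the 22 (31.8%), where 19.6% of all tested probe sets did so, and both stood below for 1 (4.55%), where 17.6% did. Of the 7, BGLU9, BGLU16, BGLU34 and BGLU38 were below 16 on every array. These counts depended on the normalization. As deposited, the groups of BGLU5, BGLU36 and BGLU38 overlapped, while BGLU14 had both high arrays above both low arrays. BGLU25 and BGLU32 then joined BGLU26 with both high arrays below both low arrays. With the deposited scaling or after median centring, 11 of 22 differences were positive and the median was 0.04, but the median of all tested probe sets also moved, to -0.07 under each. The median of the members relative to all tested probe sets was 0.12 as reported and 0.11 under both, where 14 of 22 lay above the median of all. Leaving out high grain number replicate 1 gave a member median of 0.01, equal to that of all tested probe sets to 2 decimals, and leaving out low grain number replicate 2 gave 0.05. With the filter at the 60th percentile, the 13 members left also had a median of 0.01. The median SD of 2 arrays of a group, on the log2 scale, was 0.192 for the members and 0.156 for all tested probe sets in high-grain bulks, and 0.133 for the members and 0.137 for all tested probe sets in low-grain bulks.

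**Figure D2:**
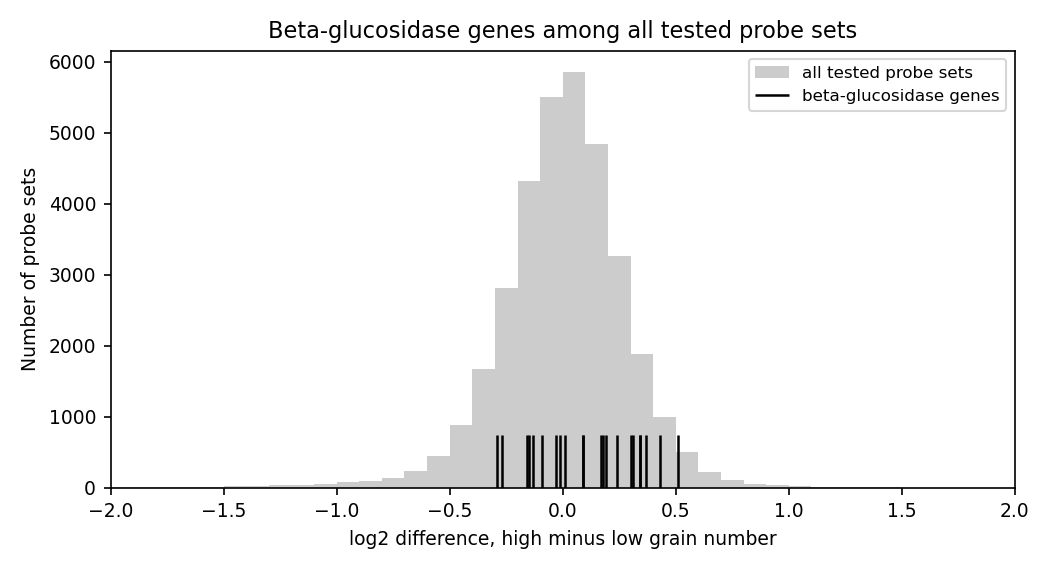
Where the tested beta-glucosidase genes lie among all tested probe sets. Grey bars count probe sets by log2 difference, high minus low grain number, in steps along the x axis, and black ticks are the 22 genes, whose differences run between -0.29 and 0.51. The axis ends at -2 and 2, which leaves out 51 probe sets.

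Most members were dim. Of the 27 genes, 9 had an intensity of 16 or more on all 4 arrays (33.3%), which was the case for 65.6% of all 17905 genes by the same rule. These 9 were BGLU5, BGLU7, BGLU8, BGLU10, BGLU13, BGLU25, BGLU26, BGLU30 and BGLU32. BGLU6 and BGLU36 reached 16 on some arrays, and 16 genes stayed below it on every array. Signals of different probe sets are not on a common scale, so the size of 1 gene's intensity is not set against another's.

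The wall-related enzymes come first. BGLU7 (LOC4333841), known as BGlu1, cuts short glucose chains that arise from cell walls. It had an intensity of 1289.7 and 1256 in high-grain bulks and of 1391 and 1023 in low-grain bulks. The groups overlapped, since low-grain bulks held both the highest and the lowest value, and the log2 difference was 0.09 ± 0.18 (SE, limma adjusted p = 0.953). Its 95% interval ran from -0.30 to 0.48. Its direction rested on single arrays, since leaving out replicate 2 of the low-grain bulk gave -0.13 and leaving out its replicate 1 gave 0.31. Relative to the median of all tested probe sets it was 0.08 as reported and 0.01 with the deposited scaling.

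BGLU8 (LOC4333842) is the gene directly beside BGLU7 on the chromosome and had the smallest p-value of the family. Its intensity was 606 and 533 in high-grain bulks, against 465 and 332 in low-grain bulks, a mean of 570 ± 51.7 against 398.5 ± 93.6 (SD, n = 2 each). Both high arrays were above both low arrays, by 1.43-fold on average on the log2(intensity + 16) scale. The log2 difference was 0.51 ± 0.21, with an interval from 0.06 to 0.97, and it missed the threshold (limma adjusted p = 0.537). As deposited, before any normalization here, the values were 551 and 513 in high-grain bulks and 390.4 and 434 in low-grain bulks, again without overlap, with a difference of 0.36. The difference was 0.29 when low grain number replicate 2 was left out and 0.75 when low grain number replicate 1 was, so its size rests on which low array is kept. Whether BGLU8 differed more than its neighbour BGLU7 was not tested.

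BGLU26 (LOC4344146) encodes an enzyme that can also release mannose from short chains. After quantile normalization it was the only tested member with both high arrays below both low arrays. It had 71.0 and 56.4 in high-grain bulks and 84.7 and 77.6 in low-grain bulks. The log2 difference was -0.29 ± 0.21 (limma adjusted p = 0.822), with an interval from -0.76 to 0.18. It stayed negative under each alternative run, between -0.46 and -0.16, and did not pass under any of them.

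**Figure D3:**
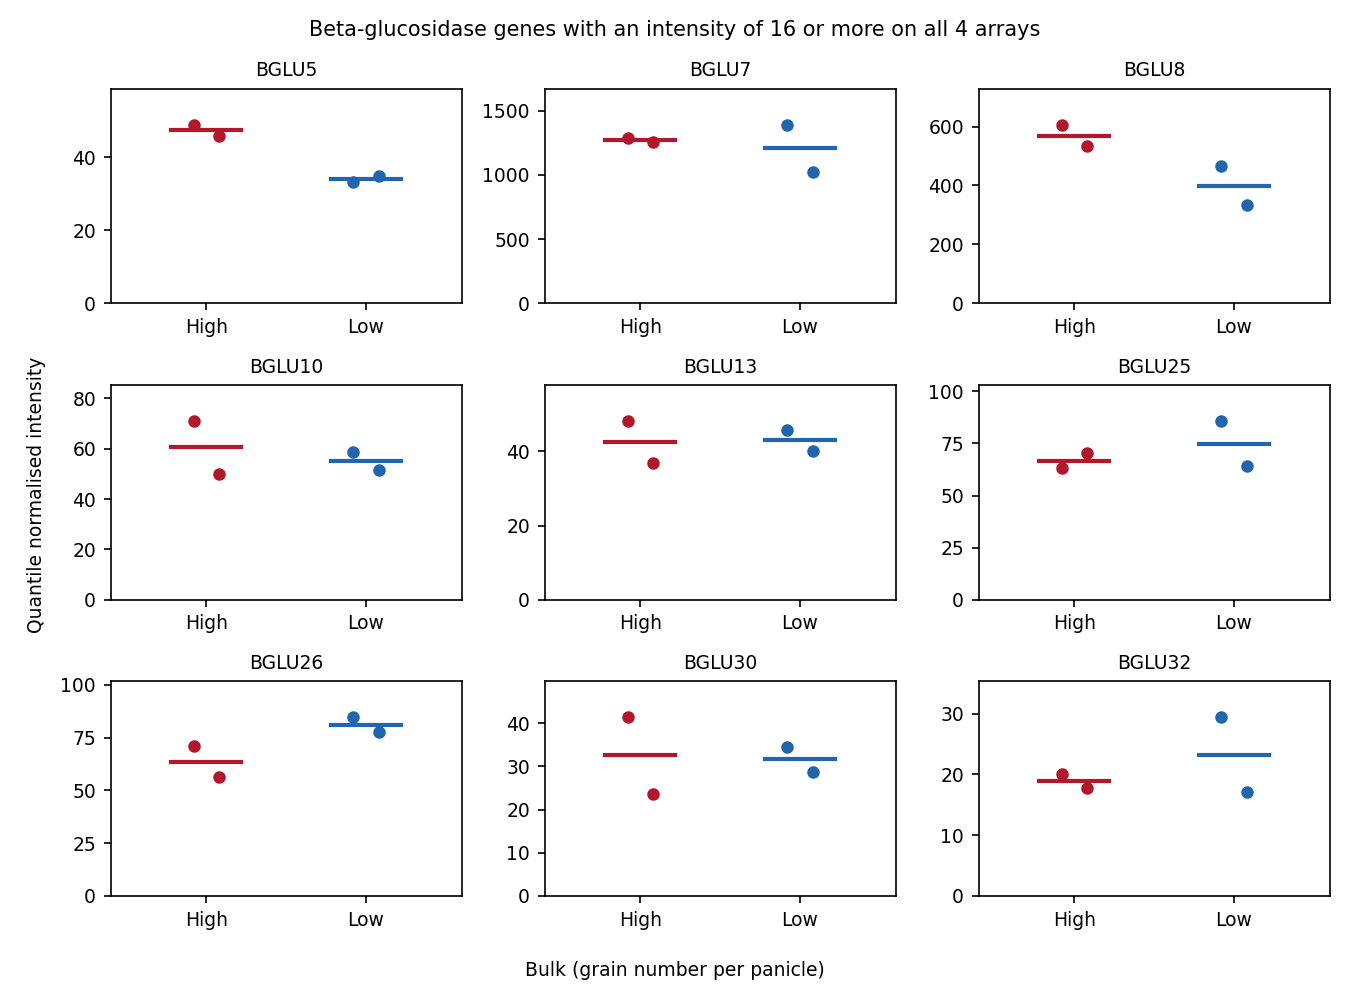
Intensities of the 9 beta-glucosidase genes at 16 or more on all 4 arrays. Each panel is 1 gene with its own y axis from 0 (quantile normalised intensity), points are single arrays and bars the mean of 2, with high-grain bulks on the left. BGLU5 and BGLU8 show both high arrays above both low arrays, BGLU26 shows the opposite, and the groups of the other 6 overlap.

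Genes whose enzymes act on hormone glucosides gave no difference beyond the spread between arrays. BGLU13 (LOC4336146), which frees tuberonic acid, a relative of jasmonic acid, from its glucoside, had an intensity of 48.2 and 36.9 in high-grain bulks and of 45.9 and 40 in low-grain bulks. The high bulks enclosed low-grain bulks, and the log2 difference was -0.01 ± 0.21 (limma adjusted p = 0.998, interval -0.48 to 0.46). BGLU12 (LOC4336145), which acts on the same glucoside, was below 16 on every array, with means of 9.05 in high-grain bulks and 11.9 in low-grain bulks and a difference of -0.16 ± 0.21. BGLU6 (LOC4332041), which can free abscisic acid from its glucose ester, had 16.5 and 3.05 in high-grain bulks and 13.6 and 14.3 in low-grain bulks. Its high arrays lay on either side of both low arrays (log2 difference -0.27 ± 0.25, limma adjusted p = 0.873). BGLU31 (LOC4347545), a transglucosidase that moves glucose between phenolic acids, flavonoids and hormones, was too dim to be tested, with 3.83 and 1.95 in high-grain bulks and 0.8 and 4.15 in low-grain bulks.

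The genes of lignin precursor release were dim. BGLU16 (LOC4336389) and BGLU18 (LOC4336391) free monolignols, the units of lignin, from their storage glucosides, and BGLU14 (LOC4336388) lies in the same stretch of the chromosome. BGLU16 had 6.5 and 6.72 in high-grain bulks and 4.25 and 0.6 in low-grain bulks, so the groups did not overlap. Its other probe set, too dim to be tested, did overlap, with 3.83 and 2.58 in high-grain bulks and 0.475 and 5.55 in low-grain bulks. BGLU18 had 12.2 and 6.72 in high-grain bulks and 1.05 and 8.47 in low-grain bulks, and BGLU14 had means of 7.01 and 3.40 in the high and low bulks. All 3 lay below 16 on every array. Their log2 differences were 0.30 ± 0.19, 0.31 ± 0.22 and 0.24 ± 0.19 for BGLU16, BGLU18 and BGLU14 (limma adjusted p = 0.765, 0.819 and 0.843). Of the 5 genes matched by stem secondary wall symbols, 4 had a negative difference and 1 a positive one. None of BGLU14, BGLU16 and BGLU18 passed, and a relation between them and the wall genes was not tested. With log2(value + 1) the difference was 1.39 for BGLU16 and 1.19 for BGLU18, without a call, so the size of these values depends on the added constant. With its probe sets averaged, BGLU16 had a difference of 0.16.

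BGLU36 (LOC4351127) is the rice SFR2, which in Arabidopsis remodels galactolipids of the chloroplast envelope during freezing. Its brightest probe set had 16.8 and 32.2 in high-grain bulks, against 14.3 and 12.8 in low-grain bulks. Both high arrays were above both low arrays, but the log2 difference of 0.43 ± 0.23 (limma adjusted p = 0.700) rested largely on high grain number replicate 2, and without that array it was 0.16. As deposited, high-grain bulks had 15.3 and 30.1 and low-grain bulks 12.3 and 15.7, which overlap. A different probe set of the gene had 19.9 and 19.0 in high-grain bulks and 19.9 and 10.5 in low-grain bulks, with a difference of 0.20 ± 0.22. The third, which was dim, had 1.75 and 1.62 in high-grain bulks and 7.70 and 4.22 in low-grain bulks, with a difference of -0.31 ± 0.18. The probe sets of BGLU36 therefore disagreed in sign, and their mean gave a difference of 0.11.

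Among the bright genes for which no substrate is named here, BGLU5 (LOC4326948) had the most even separation. Its intensity was 48.9 and 45.9 in high-grain bulks, against 33.1 and 34.9 in low-grain bulks, so the gap between the groups was wider than the spread within them. The log2 difference was 0.34 ± 0.20 (1.27-fold, limma adjusted p = 0.754, interval -0.11 to 0.79). As deposited, however, high-grain bulks had 45.2 and 41.8 and low-grain bulks 28.6 and 44.8, which overlap, and the difference was 0.19. Its dimmer probe set, below 16 on every array, had a difference of 0.03 ± 0.20.

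BGLU10 (LOC4336142) had 71.0 and 50.0 in high-grain bulks and 58.5 and 51.7 in low-grain bulks, a log2 difference of 0.09 ± 0.22. BGLU25 (LOC4341870) had 63.0 and 70.6 in high-grain bulks and 85.8 and 64 in low-grain bulks, a difference of -0.13 ± 0.22. BGLU30 (LOC4347441) had 41.4 and 23.7 in high-grain bulks and 34.5 and 28.8 in low-grain bulks, a difference of 0.01 ± 0.23. In these 3 genes the groups overlapped and the limma adjusted p was 0.964, 0.945 and 0.999. Their signs changed under at least 1 alternative, and so did those of BGLU7 and BGLU13. BGLU32 (LOC4347546) had 20 and 17.8 in high-grain bulks and 29.4 and 17.1 in low-grain bulks, also with overlap (-0.15 ± 0.22, limma adjusted p = 0.930). Its brightest probe set carries a suffix (_s_at) that Affymetrix gives to probes shared between related transcripts. Of the 39 member probe sets, 6 carry this suffix or the one for partly shared probes (_x_at), among them the brightest of BGLU1, BGLU3, BGLU16 and BGLU36, and signal from a related transcript was not separated in them.

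BGLU9 and BGLU34 had differences larger than those of most bright genes, though below that of BGLU8, at signals near the bottom of the array's range. BGLU34 (LOC4348315) had 5.72 and 7.53 in high-grain bulks, against 2.27 and 0.8 in low-grain bulks, and its log2 difference was 0.37 ± 0.18 (limma adjusted p = 0.654). BGLU9 (LOC9269478) had 9.93 and 9.07 in high-grain bulks, against 5.33 and 3.05 in low-grain bulks, a difference of 0.34 ± 0.19 (limma adjusted p = 0.714). In both, the high arrays were above the low arrays. With log2(value + 1) the differences were 1.64 and 1.05 for BGLU34 and BGLU9, again without a call.

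The remaining tested genes were BGLU1, BGLU22, BGLU27, BGLU28 and BGLU38. Their log2 differences were -0.09 ± 0.20, 0.18 ± 0.23, 0.19 ± 0.21, -0.03 ± 0.19 and 0.17 ± 0.19, all from signals below 16 on every array. BGLU38 had both high arrays above both low arrays by a narrow margin (4.88 and 4.42 in high-grain bulks, 0.475 and 4.40 in low-grain bulks), and in the other 4 the groups overlapped. Alongside BGLU31, the genes too dim to be tested were BGLU3, BGLU19, BGLU20 and BGLU33, and no untested gene exceeded 8.32 on any array. By its brightest probe set, BGLU3 had 6.72 and 4.42 in high-grain bulks and 0.6 and 1.27 in low-grain bulks. Another probe set of BGLU3 went the other way, with 2.15 and 0.25 in high-grain bulks and 7.92 and 2.5 in low-grain bulks. The remaining one overlapped, with 3.6 and 1.15 in high-grain bulks and 0.25 and 3.85 in low-grain bulks. BGLU19 had 2.15 and 8.32 in high-grain bulks and 0.95 on both low arrays. BGLU20 had means of 3.46 and 1.11 and BGLU33 of 2.54 and 0.725 in the high and low bulks.

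**Figure D4:**
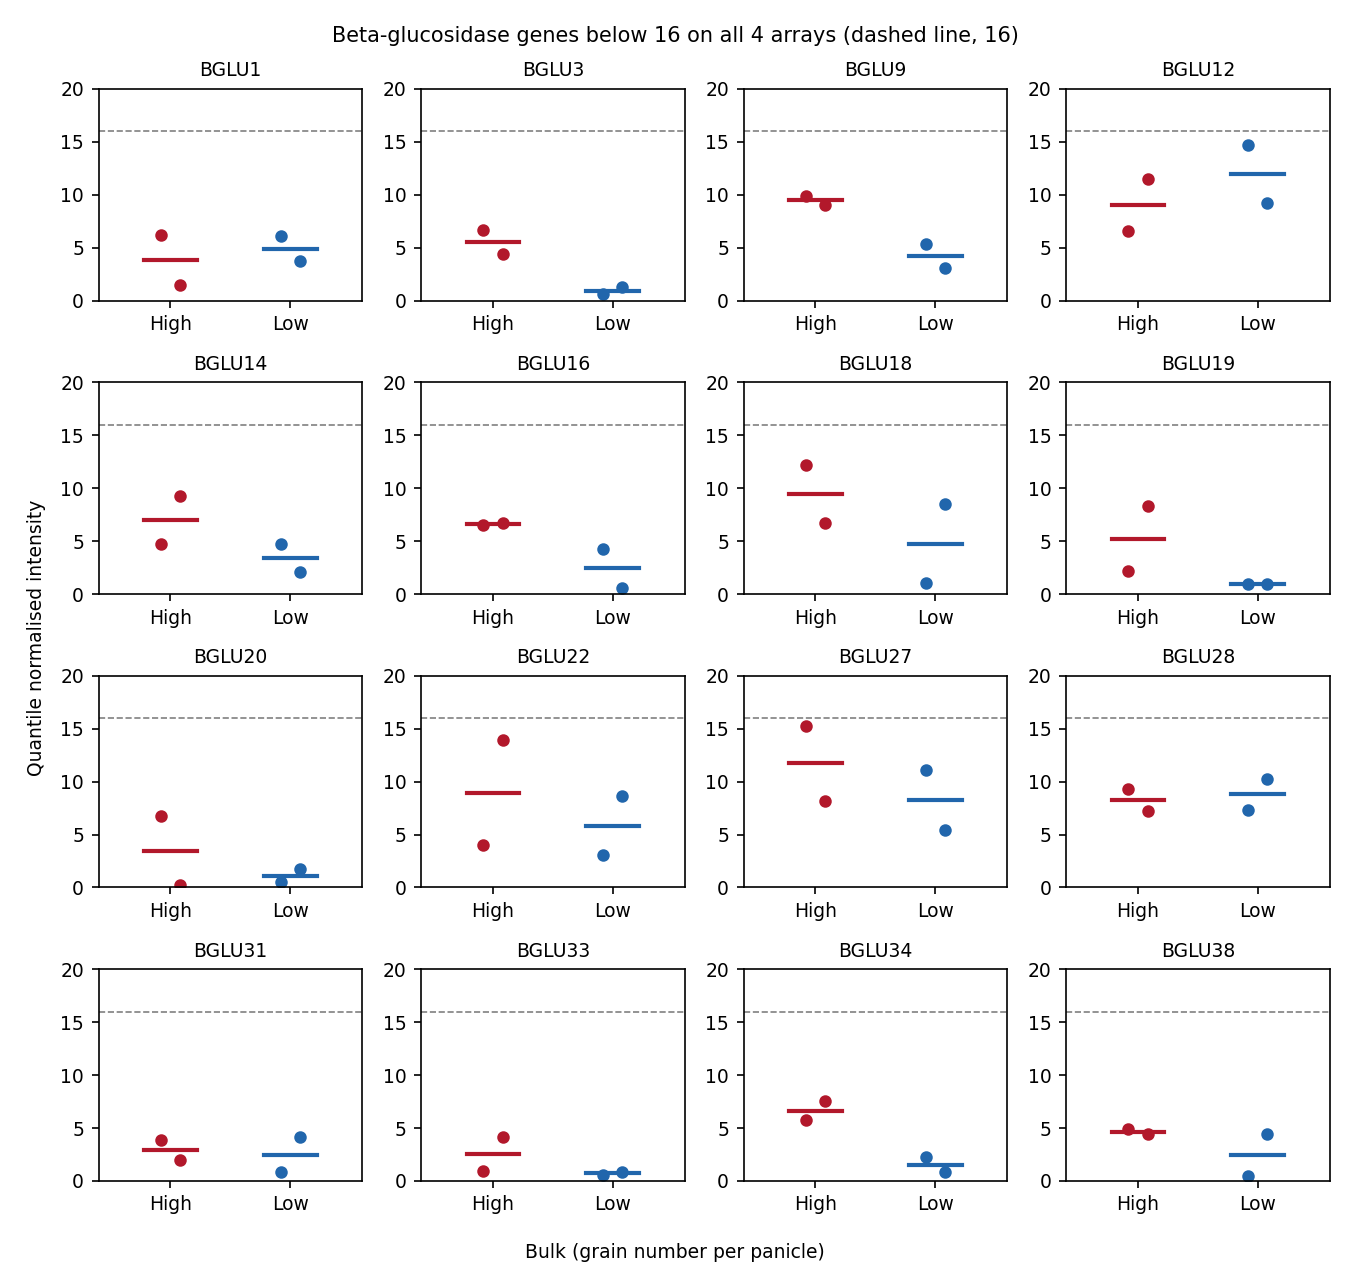
Intensities of the 16 beta-glucosidase genes below 16 on all 4 arrays. Panels share 1 y axis from 0 (quantile normalised intensity), the dashed line is 16, points are single arrays and bars the mean of 2, with high-grain bulks on the left. BGLU3, BGLU9, BGLU16, BGLU19, BGLU33, BGLU34 and BGLU38 show both high arrays above both low arrays, at signals of at most 9.93. Of all tested probe sets, 19.6% stood this way, and BGLU3, BGLU19 and BGLU33 were too dim to be tested. The groups of BGLU33 and BGLU38 overlapped as deposited. Each gene is shown by its brightest probe set, and the other probe sets of BGLU3 and BGLU16 did not separate this way.

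Rice beta-glucosidase genes often stand side by side. In the gene order of the table, 20 of the 31 genes lie in 7 stretches in which each is within 10 protein-coding genes of the next. Beside BGLU7 and BGLU8 (log2 differences 0.09 and 0.51), the stretch of BGLU9, BGLU10, BGLU12 and BGLU13 had differences of 0.34, 0.09, -0.16 and -0.01, which are of both signs. The stretch of BGLU14, BGLU16 and BGLU18 had 0.24, 0.30 and 0.31, all of one sign, from signals below 16 on every array. Only this stretch and that of BGLU9 to BGLU13 held 3 or more tested members. BGLU27 and BGLU28 had 0.19 and -0.03. In the other 3 stretches at most 1 gene was tested. Probe sets of such related genes can share sequence, so neighbours are not independent measurements.

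Of 9 genes with several probe sets, 5 had more than 1 tested, and in 2 of these (BGLU10 and BGLU36) the probe sets had differences of both signs. For BGLU10, the dimmer probe sets gave -0.10 ± 0.20 and -0.13 ± 0.25. For BGLU30 a second probe set gave 0.03 ± 0.41, with 55.2 and 9.53 in high-grain bulks and 38 and 16.1 in low-grain bulks, a spread wider than that of the first. Counting every tested probe set of the family, 0 of 29 passed in limma, and 1 had an unadjusted p under 0.05.

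Other genes of beta-glucan, lignin and hormone glucoside metabolism gave no call either. Of 10 tested endo-beta-glucanases (the GLU genes, which cut within glucan chains), 0 passed (limma, 1 at an unadjusted p under 0.05), and the median log2 difference was 0.07. That gene was GLU10 (LOC4330667), with 11.5 and 18.5 in high-grain bulks and 37.7 and 35.7 in low-grain bulks, a difference of -0.77 ± 0.21 (limma adjusted p = 0.208). Of 3 tested synthases of mixed-linkage glucan, a wall polymer of grasses, 0 passed (limma, 0 at an unadjusted p under 0.05). CSLF6 (LOC4344719), the main synthase of that glucan, had the smallest p, with 248.5 and 295 in high-grain bulks, 187 and 277 in low-grain bulks and a difference of 0.24 ± 0.23. The median of these 3 was 0.12.

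Of 5 tested genes of phenylpropanoid and monolignol synthesis, 0 passed (limma, 1 at an unadjusted p under 0.05), all 5 differences were negative and their median was -0.34. The one with the smallest p was 4CL3 (LOC4328485), a 4-coumarate CoA ligase, with 4.72 and 8.32 in high-grain bulks, against 21.1 and 40.2 in low-grain bulks (-1.02 ± 0.24, limma adjusted p = 0.119). It passed under the deposited scaling (adjusted p = 0.00771) and after median centring (0.000991). Of the hormone turnover list 3 genes were tested and 0 passed (limma, 0 at an unadjusted p under 0.05), and the median of -0.27 is the value of SGT1, a symbol used both for a glucosyltransferase and for a co-chaperone, so it may not belong to the list. ABA8OX2 had 0.07. ABA8OX1 (LOC9269675), which breaks down abscisic acid, had 55.8 and 79.5 in high-grain bulks and 84.5 and 107 in low-grain bulks (-0.43 ± 0.23, limma adjusted p = 0.706). None of the 15 beta-galactosidase symbols searched was matched to a gene on the array here.

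**Figure D5:**
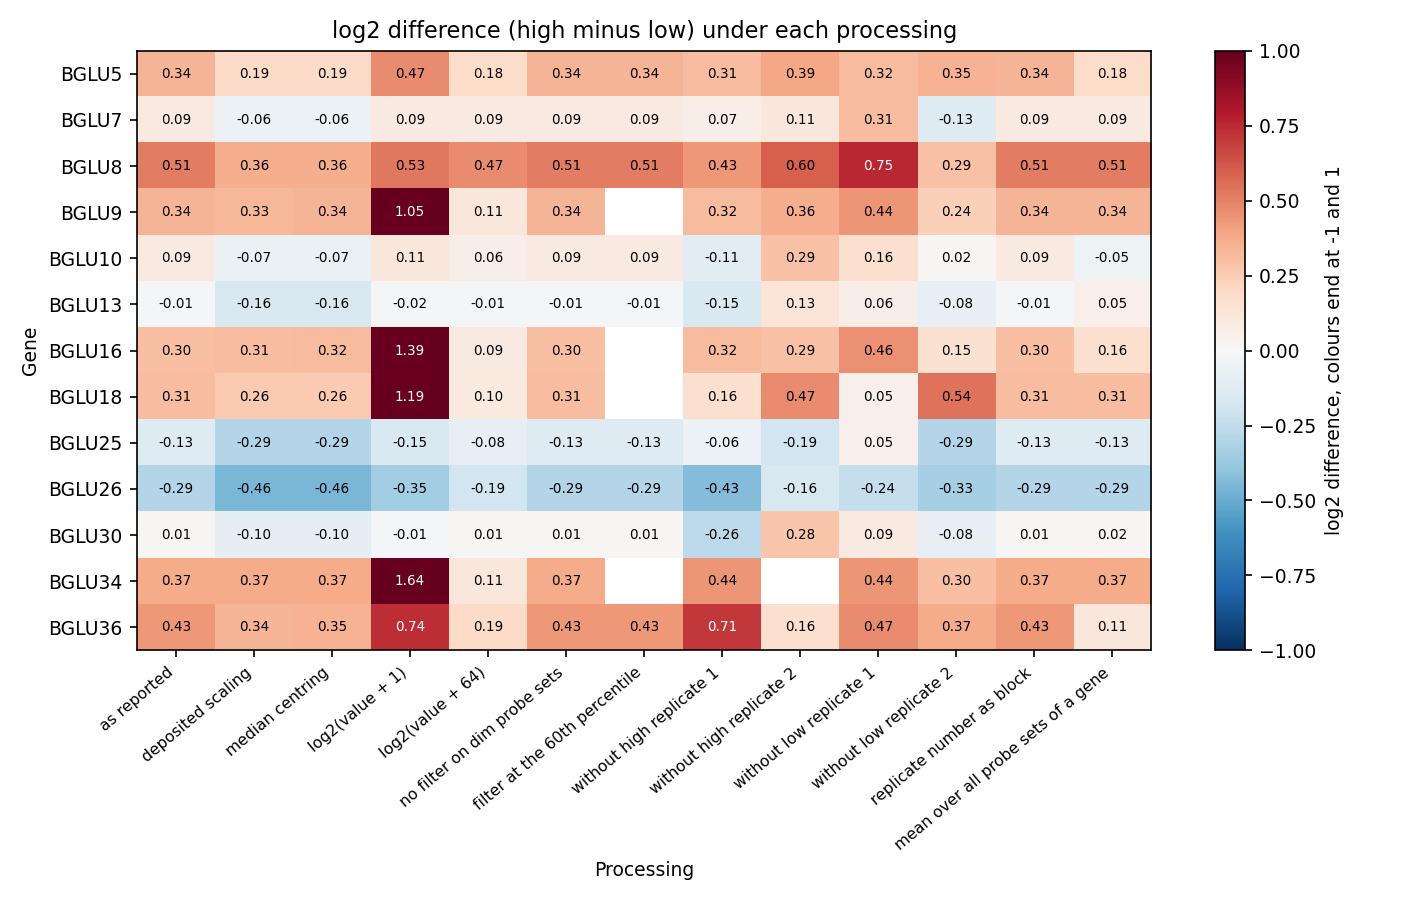
log2 differences (high minus low grain number) of 13 beta-glucosidase genes under each processing. Rows are the genes among the 8 with the highest mean or the 8 with the largest difference. Columns are the processing as reported and its alternatives, and a blank cell means the gene was too dim to be tested there. BGLU8 stays positive throughout, between 0.29 and 0.75, BGLU26 stays negative, and BGLU30 lies on both sides of 0.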

How the data were processed

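Biotinylated cRNA was hybridised to Affymetrix rice arrays, per the labels' protocols. The table deposited by the authors gives an intensity, on a linear scale, for each of 57381 probe sets, and GCOS 1.2 is named in the submitters' processing notes; any scaling is not given in the sources used here. Trimmed means (2% at each end) of the deposited intensities were 39.0 and 40.5 for the high-grain bulks and 36.5 and 55.3 for the low-grain bulks. The 187 control probe sets were left out, and the other 57194 were quantile normalised and put on the log2(intensity + 16) scale. Those whose mean reached the 40th percentile were kept (34316). The test was limma 3.58.1 in R 4.3.3 (trend, group only, Benjamini-Hochberg at 0.05 over all kept probe sets, 195 passed), after a test on simulated data. The number of arrays limits the precision.

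Probe sets were named through the platform's annotation and NCBI's gene table (assembly ASM3414082v1), used for names and gene order only. Of 57194 probe sets, 22436 had 1 gene, 95 several and 34663 none. A gene is read from its probe set with the highest mean log2 value. Values on every array are given for members that passed, the 8 with the highest mean and the 8 with the largest difference; those given for other members were chosen after their values were seen. From each list the gene with the smallest p is named. Members and lists were chosen with earlier results of these data known. The check of whether equal replicate numbers pair the arrays is in the closing section.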

Additional observations from a re-analysis of the deposited data

How the results depend on the processing

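No beta-glucosidase gene passed under any of the 12 alternatives run (limma, adjusted p). The smallest adjusted p of a member was 0.186 for BGLU8, with the replicate block, a fit that adds replicate number as a term. The labels do not say that equal numbers share anything, and deviations from the group means correlated at 0.111 between high and low replicate 1 arrays, so the numbers were not taken as pairs. The count over all probe sets (195) was 654 with the replicate block (189 higher, 465 lower), 391 after median centring, 128 with log2(value + 1), 119 with probe sets of a gene averaged, and 0 with no filter (3849 at an unadjusted p under 0.05), and ranged from 53 to 229 without 1 array. The split was 53 higher and 142 lower as reported, 37 and 233 with the deposited scaling and 59 and 332 after median centring. The median difference of the tested members (0.13) was 0.04 under both other normalizations (deposited scaling, median centring), where the median of all tested probe sets moved from 0.01 to -0.07, so that the members lay 0.11 above it, against 0.12 as reported. It was 0.29 with log2(value + 1), 0.01 with a filter at the 60th percentile, and ranged from 0.01 to 0.13 without 1 array (0.01 lacking high grain number replicate 1, 0.05 lacking low grain number replicate 2). In the related lists, where 0 genes passed, 1 did under both other normalizations and with the replicate block (4CL3 each time, adjusted p = 0.0107 with the block).

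The sign changed in 16 of 151 values of the 13 named members. Under both other normalizations the log2 differences were -0.06 for BGLU7, -0.07 for BGLU10 and -0.10 for BGLU30, and relative to the median of all tested probe sets they were 0.01, 0.00 and -0.03, against 0.08, 0.08 and -0.01 as reported. BGLU30 had -0.01 with log2(value + 1). With probe sets averaged, BGLU10 had -0.05 and BGLU13 had 0.05. Without 1 array, BGLU7 ranged from -0.13 to 0.31, BGLU10 from -0.11 to 0.29, BGLU13 from -0.15 to 0.13, BGLU25 from -0.29 to 0.05 and BGLU30 from -0.26 to 0.28. The cause of the sign changes outside the normalizations was not tested. A fit restricted to genes whose current symbol is BGLU was not run, since no gene carries it as current symbol rather than as synonym. Where 1 array of a bulk is left, its spread is taken from the other bulk. Most members are dim, so their differences are the least certain.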

Other observations

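Some of the genes that did differ between the bulks lie close to beta-glucosidase genes, an observation made after the values were seen and not tested against chance. Of 180 tested genes within 10 protein-coding genes of a member on the array, 4 passed (2.22%, limma), against 0.568% of all tested probe sets, and all 4 were lower in high-grain bulks, as were 142 of the 195 that passed in all. At an unadjusted p under 0.05 there were 15 of the 180 (8.33%), against 8.24% of all tested probe sets. These shares have unlike bases. Neighbours are read from 1 probe set per gene, while all tested probe sets include those paired with no gene. RTS (LOC4326940), which is expressed in the anther tapetum, stands 6 places from BGLU5, with 1.52 and 0.875 in high-grain bulks and 224 and 553 in low-grain bulks (log2 difference -4.42 ± 0.33, limma adjusted p = 0.000258). BGLU5 itself had a difference of 0.34 ± 0.20. LOC4341871 stands directly beside BGLU25, with 1009 and 1372 in high-grain bulks and 2442 and 2149.7 in low-grain bulks (-0.95 ± 0.18, limma adjusted p = 0.0397), and LOC4341861 stands 9 places away on the other side (-2.53 ± 0.22, limma adjusted p = 0.000615). BGLU25 had -0.13 ± 0.22. LOC4338574, 10 places from BGLU22, had 6.40 and 43.5 in high-grain bulks and 163 and 179.7 in low-grain bulks (-2.36 ± 0.36, limma adjusted p = 0.0170).

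OsSPL14 (LOC4345998), also known as IPA1 and WFP, which encodes a transcription factor that increases panicle branching, stands 3 places from BGLU27 and 2 from BGLU28. Its intensity was 144.5 and 185 in high-grain bulks and 492 and 282 in low-grain bulks, without overlap, and it did not pass (-1.12 ± 0.26, limma adjusted p = 0.122). BGLU27 had 15.3 and 8.22 in high-grain bulks and 11.1 and 5.42 in low-grain bulks, and BGLU28 had 9.28 and 7.20 in high-grain bulks and 7.33 and 10.3 in low-grain bulks.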
